A study of Mus musculus with 28 samples.

Results

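The circadian clock genes described here are 10 genes, Arntl, Clock, Npas2, Per1, Per2, Cry1, Nr1d1, Nr1d2, Dbp and Tef, chosen by name as parts or direct outputs of the clock, and all 10 were found among the 35275 genes of both tables. The question was whether groups that were compared for genotype or for the method of deletion also differed in the state of the clock. The study deleted Ptk2, the gene of focal adhesion kinase (FAK), in the livers of FVB mice and sequenced RNA of 28 libraries in 2 experiments. In the first, KO mice were FAKfl/fl;Alb-Cre+ and WT mice were FAKfl/fl;Alb-Cre- littermates aged 6 to 8 weeks without injury (called unfed, which means not fed DDC), with 4 libraries of isolated hepatocytes and 4 of whole liver from each genotype. In the second, all mice had cholestatic injury from a diet with DDC, taken freely for 4 to 8 weeks, and there were 3 whole-liver libraries in each of 4 groups: Virus KO (FAKfl/fl;Alb-Cre- mice injected with AAV8-TBG-Cre), Virus WT (FAKfl/fl;Alb-Cre- mice injected with AAV8-TBG-Null), Bred KO (FAKfl/fl;Alb-Cre+) and Bred WT (FAKfl/fl;Alb-Cre-), and the ages of these mice are not given in the sources used here. Both floxed alleles were thus carried by every group. Alb-Cre acts from the fetal liver on, in hepatocytes and cholangiocytes, whereas the TBG promoter of the vector acts in hepatocytes, so the other cells of a whole liver keep FAK. The time of day at which livers were taken is not given in the sources used here.

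The clock of liver cells is a loop of transcription factors with a period of about a day. ARNTL (BMAL1) pairs with CLOCK or NPAS2 and switches on the Per and Cry genes, whose proteins then block that pair, and the genes of the nuclear receptors REV-ERB alpha and beta (Nr1d1, Nr1d2), which repress Arntl. Dbp and Tef encode transcription factors of the PAR bZIP family that carry the rhythm to metabolic genes. In mouse liver, Arntl and Npas2 peak around the end of the night, and Nr1d1 and Dbp peak during the day, so that levels of Arntl and Dbp run against each other. Per1 also responds to glucocorticoids and to stress signals, apart from the loop.

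ARNTL with CLOCK or NPAS2 binds the E-box, CACGTG. It was looked for, with 5 other motifs, in the 250 bases before each RefSeq start (build GRCm38.p6) of the 9 members with an entry (all but Per2). The windows of 3 genes are shown because they hold the E-box and belong to genes whose levels are described below. Capitals mark motifs, and positions are counted back from the start. An E-box lay at -166 of Per1, at -138 of Tef and at -60 of Cry1.
Per1, chr11:69098699-69098948, plus strand: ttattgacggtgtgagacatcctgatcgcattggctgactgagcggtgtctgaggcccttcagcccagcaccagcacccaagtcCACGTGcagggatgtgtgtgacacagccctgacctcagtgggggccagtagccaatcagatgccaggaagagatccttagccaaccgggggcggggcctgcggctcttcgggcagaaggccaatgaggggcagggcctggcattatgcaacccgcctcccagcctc
Tef, chr15:81811164-81811413, plus strand: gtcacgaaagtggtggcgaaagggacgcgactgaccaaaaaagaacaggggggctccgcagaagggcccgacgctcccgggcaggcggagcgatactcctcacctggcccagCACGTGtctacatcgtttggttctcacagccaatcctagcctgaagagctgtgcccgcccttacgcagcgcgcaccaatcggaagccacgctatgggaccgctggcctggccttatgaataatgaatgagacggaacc
Cry1, chr10:85185055-85185304, minus strand: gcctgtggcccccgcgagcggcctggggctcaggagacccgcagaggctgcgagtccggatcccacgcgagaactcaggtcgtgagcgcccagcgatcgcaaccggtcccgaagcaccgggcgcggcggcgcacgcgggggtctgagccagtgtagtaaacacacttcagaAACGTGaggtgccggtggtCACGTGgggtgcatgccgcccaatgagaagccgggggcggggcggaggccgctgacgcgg
In the Cry1 window the capitals at -79 are the E-prime box, CACGTT, read on the other strand. The Per1 and Tef windows lie inside longer gene models of the same genes, and the Cry1 window overlaps an annotated exon of its gene by 10 bases. The E-box was in a window of 3 of 9 members (6.02% of 32851 promoters of this length hold it on either strand). The E-prime box was in 2 of 9 (Cry1 and Nr1d1, against 3.85% of promoters) and the D-box, TTATNTAA, in 1 of 9 (Tef, at a start not shown, against 3.17%). The ROR motifs TAGGTCA and TGGGTCA (2.23% and 3.24%) and the CRE TGACGTCA (1.55%) were in none, which says only that these letters are not in these windows. None of these motifs contains another. Several starts of Clock, Arntl, Per1 and Tef were searched, and a gene counted if any of its windows held the motif. The percentages are shares of single windows, so members and percentages are in unlike units.

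Library totals ran from 11162678 to 20428773 counts. In each experiment Ptk2 was lower in every KO library: 0.907 to 1.29 FPKM in hepatocytes of KO mice against 5.68 to 6.46 FPKM in WT, 1.17 to 1.45 FPKM in KO whole liver against 3.65 to 6.67 FPKM in WT, 2.43 to 3.06 FPKM in Virus KO against 5.52 to 6.59 FPKM in Virus WT, and 2.03 to 2.35 FPKM in Bred KO against 5.16 to 8.35 FPKM in Bred WT. FPKM scales a count by gene length and library total. Replicates 2 and 4 of WT whole liver stood apart: across genes, their deviation correlated with gene length at 0.337 and 0.314, whereas the other whole livers had -0.548 to -0.359. The hepatocyte markers Alb, Ttr, Apoa1, Serpina1c and Fgb summed to between 21887 and 43223 FPKM in every library. Marker sums of the other cell types were lower in isolated hepatocytes than in unfed whole liver. The 5 macrophage markers summed to 7.66 to 30.2 FPKM in hepatocytes and 69.98 to 104 FPKM in whole liver. Single markers did not all fall. Mean Sox9 was 1.09 FPKM in KO hepatocytes and 0.777 FPKM in KO whole liver, and 1.78 and 1.15 FPKM in WT. Mean Reln was higher in hepatocytes in KO (5.95 and 3.42 FPKM) but not in WT (4.88 and 5.54 FPKM). In bulk RNA, fewer cells of a type and less RNA per cell cannot be told apart.

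Of the activators, Clock varied less between libraries than Arntl. Clock, the partner of ARNTL, had 9.64, 9.46, 5.38 and 6.93 FPKM in KO hepatocytes, against 11.97, 11.1, 10.9 and 7.67 FPKM in WT hepatocytes. In KO whole livers it had 3.38, 6.36, 5.85 and 4.65 FPKM, against 5.14, 7.45, 5.53 and 5.95 FPKM in WT whole livers. Hepatocytes stood above whole liver in both genotypes, although in KO the lowest hepatocyte library (5.38 FPKM) was under 2 of the whole livers, and in WT there was no overlap. In DDC livers Clock was 3.62 to 5.83 FPKM in Virus KO, 3.56 to 4.36 FPKM in Virus WT, 3.59 to 5.04 FPKM in Bred KO and 3.55 to 5.72 FPKM in Bred WT, and these ranges overlapped.

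Arntl, the core activator, differed widely among mice of the same group. It had 6.04, 2.45, 0.785 and 1.14 FPKM in KO hepatocytes, against 7.47, 8.33, 4.67 and 1.63 FPKM in WT hepatocytes. In KO whole livers it had 0.067, 1.68, 0.714 and 0.830 FPKM, against 0.925, 2.37, 1.37 and 0.560 FPKM in WT whole livers. In WT, 3 of 4 hepatocyte libraries were above every whole liver, while replicate 4 was not. Npas2, which can take the place of CLOCK, was the lowest member. It had 0.596, 0.110, 0.0263 and 0.0641 FPKM in KO hepatocytes, against 1.28, 1.80, 0.452 and 0.203 FPKM in WT hepatocytes, and at most 0.170 FPKM in any whole liver of the first experiment. Its counts in the first experiment were 0 to 140, so its level in whole liver rests on few reads.

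**Figure D1:**
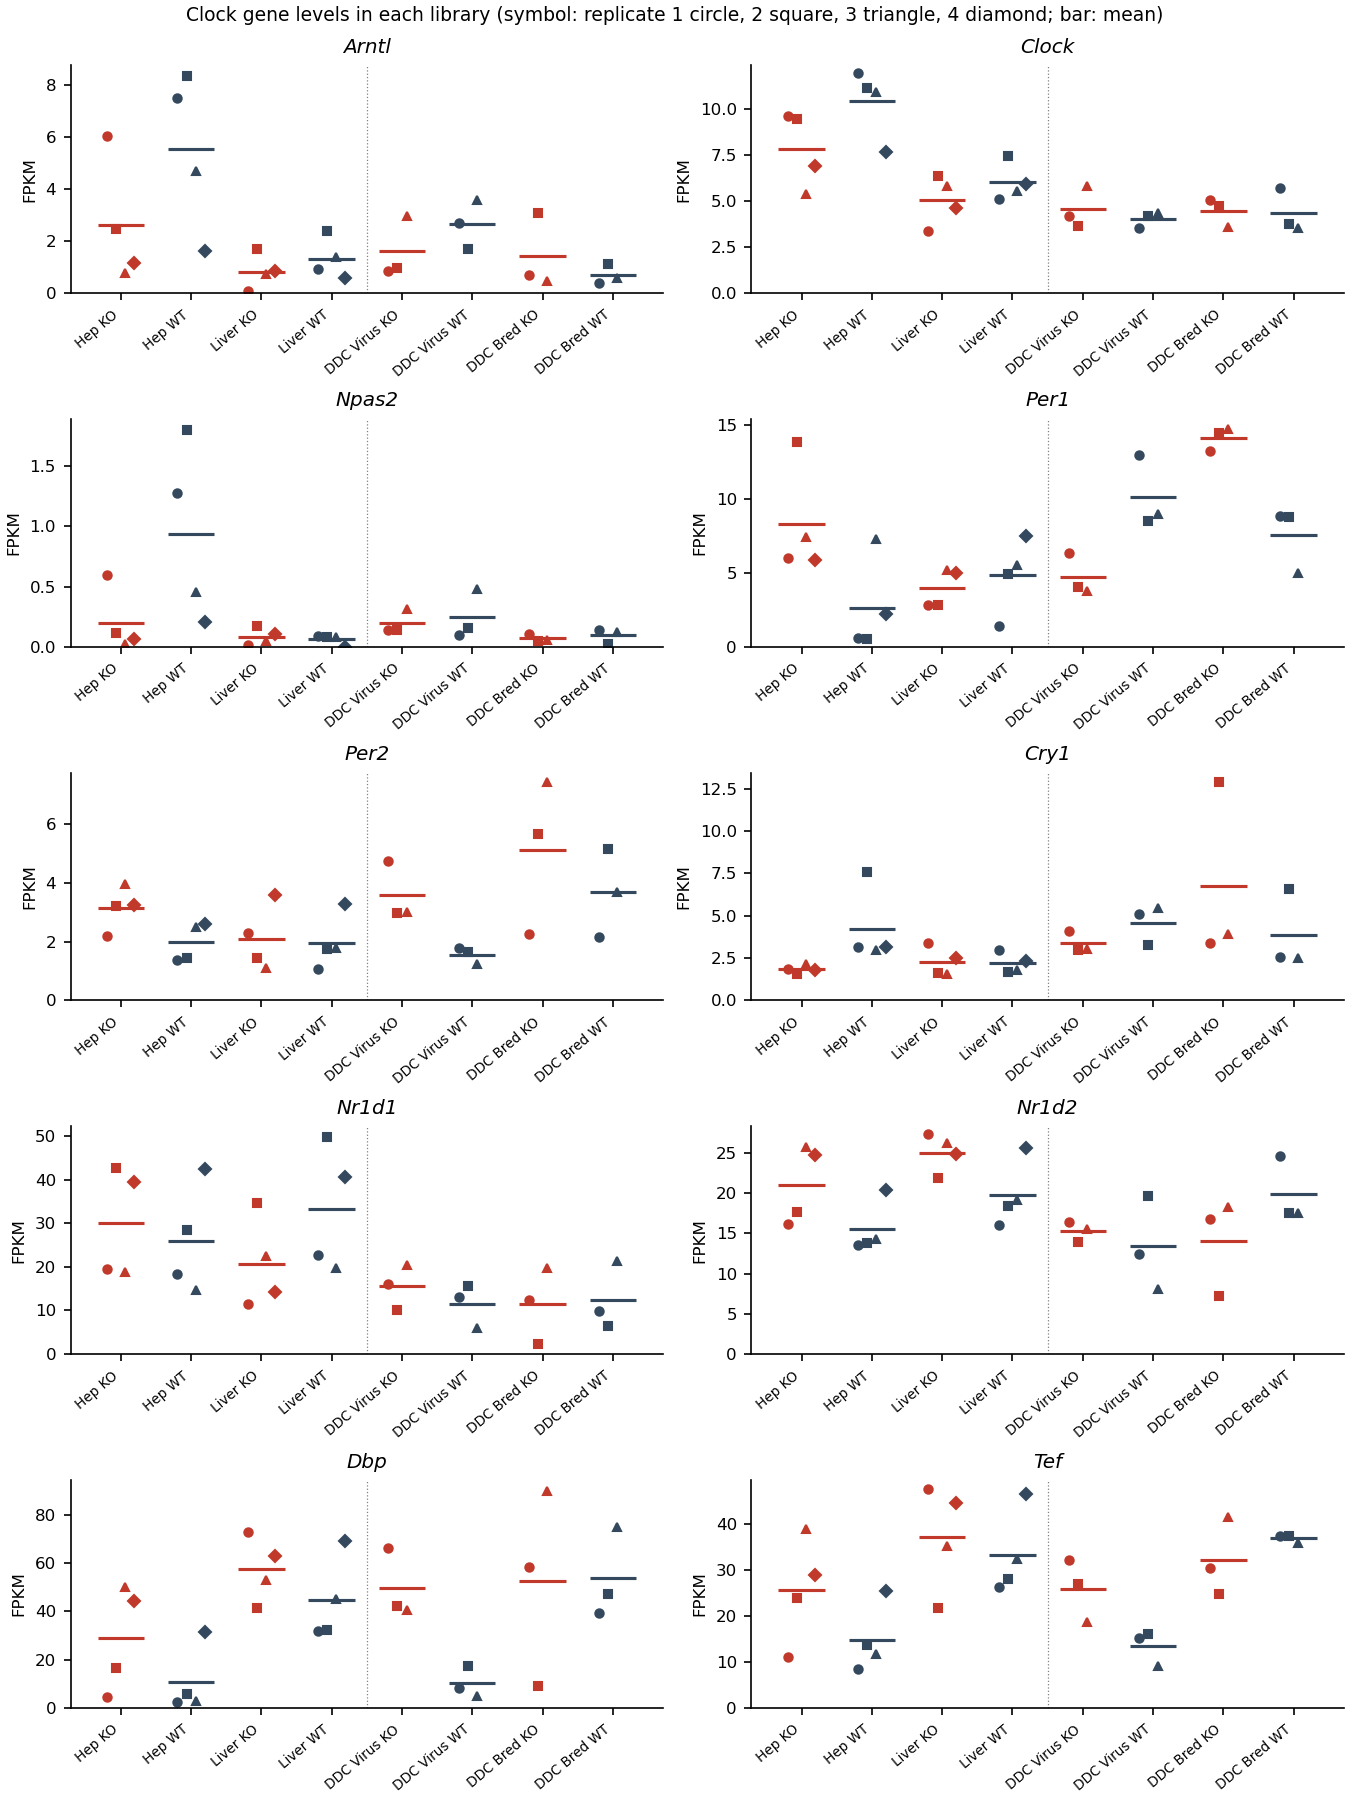
FPKM of the 10 clock genes (panels) in each library, with groups on the x axis (red KO, dark WT; Hep, isolated hepatocytes) and a dotted line between the unfed and the DDC experiment; symbols are replicates and bars are means. Dbp and Tef are low in the 3 Virus WT livers (4.85 to 17.3 FPKM for Dbp), and Arntl is high in 3 of 4 WT hepatocyte libraries.

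Of the repressors, Per1 had 5.97, 13.9, 7.41 and 5.87 FPKM in KO hepatocytes, against 0.561, 0.502, 7.31 and 2.19 FPKM in WT hepatocytes. In whole livers it was 2.83 to 5.21 FPKM in KO and 1.38 to 7.46 FPKM in WT. Per2 was 2.18 to 3.94 FPKM in KO hepatocytes and 1.36 to 2.59 FPKM in WT hepatocytes. Cry1 was low and even in KO hepatocytes, with 1.84, 1.54, 2.14 and 1.82 FPKM, against 3.18, 7.60, 2.98 and 3.14 FPKM in WT hepatocytes. The Cry1 ranges of the 2 hepatocyte groups did not overlap, while in whole liver they did, at 1.54 to 3.4 FPKM in KO and 1.69 to 2.97 FPKM in WT.

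The REV-ERB genes and the PAR bZIP genes were the most abundant members. Dbp had 4.55, 16.4, 50.05 and 44.4 FPKM in KO hepatocytes, against 2.37, 5.91, 2.87 and 31.6 FPKM in WT hepatocytes. In whole livers it had 72.8, 41.3, 53.04 and 63.1 FPKM in KO, against 31.9, 32.1, 45.3 and 69.2 FPKM in WT. Every WT hepatocyte library was thus below every WT whole liver in FPKM, though hepatocyte replicate 4 (31.6 FPKM) nearly tied with the lowest whole livers (31.9 and 32.1 FPKM). Tef had 11.05, 23.9, 38.96 and 28.9 FPKM in KO hepatocytes, against 8.53, 13.6, 11.6 and 25.3 FPKM in WT hepatocytes, and 21.6 to 47.6 FPKM in KO and 26.2 to 46.4 FPKM in WT whole livers. Nr1d1 was 18.9 to 42.8 FPKM in KO and 14.7 to 42.3 FPKM in WT hepatocytes, and Nr1d2 was 16.1 to 25.8 FPKM in KO and 13.6 to 20.3 FPKM in WT hepatocytes.

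Arntl and Dbp ran against each other between mice. In 5 of 8 groups the library with the highest Arntl had the lowest Dbp, while in Bred WT replicate 1 was lowest in both. The log2 ratio of Dbp to Arntl, each with 1 FPKM added, served as a measure of the balance of genes that peak at opposite times. It was -0.34, 2.34, 4.84 and 4.41 in KO hepatocytes, against -1.33, -0.43, -0.55 and 3.63 in WT hepatocytes. It was 3.98 to 6.11 in KO and 3.30 to 5.49 in WT whole livers. The highest of these, KO replicate 1, had Arntl at 0.067 FPKM from 3 counts, so the added 1 FPKM weighs on its ratio. With 0.1 FPKM added that ratio was 8.77. The lowest ratios of the unfed experiment were thus all from hepatocytes. In the DDC livers it was 5.17, 4.46 and 3.39 in Virus KO, against 1.33, 2.76 and 0.35 in Virus WT. In Bred livers it was 5.14, 1.27 and 5.96 in KO, against 4.85, 4.50 and 5.61 in WT. All 3 Virus WT livers and Bred KO replicate 2 lay below every other DDC liver. With Nr1d1 in place of Dbp, the ratio averaged 2.71 ± 0.42 in Virus KO and 1.72 ± 1.02 in Virus WT (SD, n = 3 each), and the groups overlapped at 2.44 in Virus KO and 2.62 in Virus WT.

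**Figure D2:**
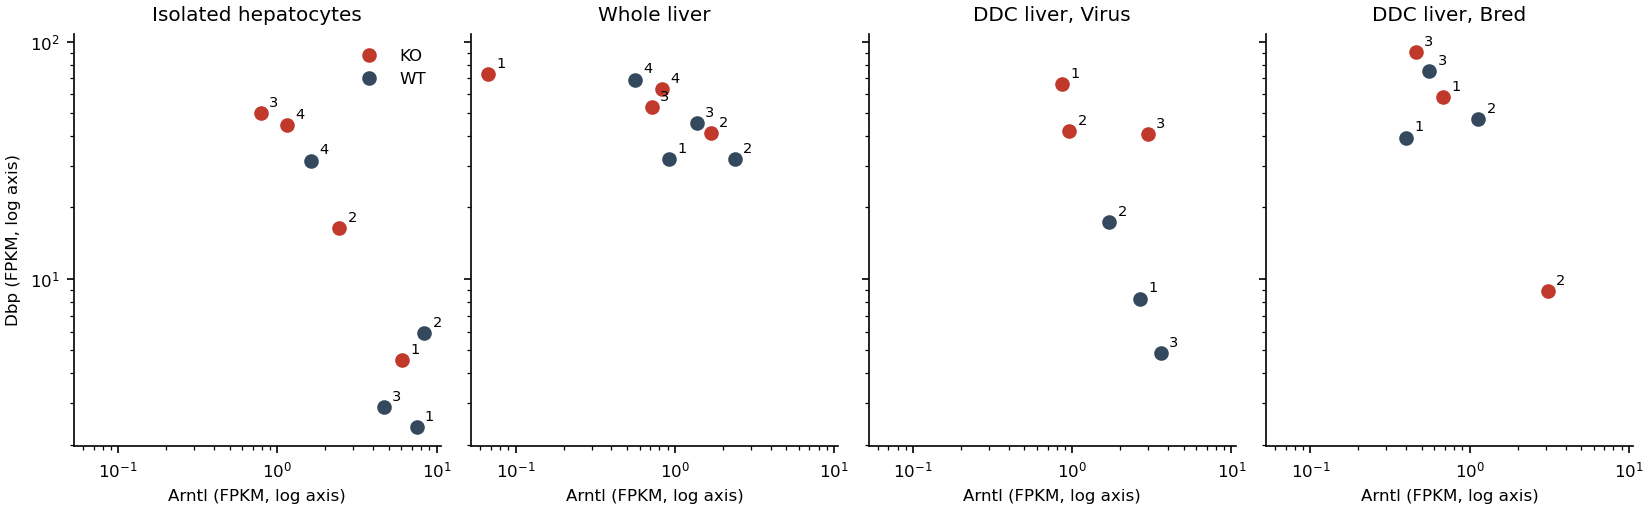
Arntl (x axis) against Dbp (y axis), both in FPKM on log axes, 1 point per library numbered by replicate, red KO and dark WT. High Arntl goes with low Dbp, and Virus WT livers (Dbp 4.85 to 17.3 FPKM) and Bred KO replicate 2 (8.85 FPKM) lie apart from the other DDC livers.

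Over the 8 hepatocyte libraries, log2 CPM of Arntl and Dbp had Pearson's r of -0.943 (exact permutation p = 0.0028, adjusted over 4 relations 0.00987) and Spearman's rho of -0.833 (exact p = 0.0154, adjusted 0.0222), and r was -0.878 without the 2 libraries farthest in Arntl. Over the 8 whole livers r was -0.853 (exact permutation p = 0.00494, adjusted 0.00987) and rho -0.905 (exact p = 0.00456, adjusted 0.0183), and r was -0.676 without 2. Over the 6 Bred livers r was -0.888 (exact permutation p = 0.0611, adjusted 0.0639) and rho -0.429 (exact p = 0.419, adjusted 0.419), and r was 0.101 without 2, so the Bred relation rests on those samples. Each relation pools KO and WT libraries. The relation of the 6 Virus livers, counted in the adjustment, is not given, because their KO and WT libraries formed separate clusters in Dbp.

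Genes that varied like Dbp were sought over 16 unfed and 12 DDC libraries, as the correlation of deviations from the group means, ranked by the weaker of the 2 experiments. Nr1d2 was the most alike, with 0.91 in unfed and 0.82 in DDC libraries, followed by Alpk1 (0.77 and 0.81), Stbd1 (0.77 and 0.91), Tnfrsf19 (0.82 and 0.76) and Olfml1 (0.74 and 0.84). For Arntl they were Chka (0.80 and 0.93), Nfil3 (0.79 and 0.85), St5 (0.75 and 0.77) and Lnx2 (0.74 and 0.90). Nfil3 encodes a repressor that acts on the same D-box as DBP. Between the members, Arntl and Dbp had -0.83 and -0.82, the most opposite of all genes compared. Nr1d1 varied with Dbp at 0.35 in unfed and 0.89 in DDC libraries, and Per1 at 0.12 and -0.20. These values share libraries and are descriptions.

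Genotype in mice without injury was compared in 1 edgeR fit of all 16 libraries (quasi-likelihood F test, Benjamini-Hochberg adjustment over 12507 genes). In whole liver no member was called at an adjusted p under 0.05, against a background of 0.008% of genes, and none had an unadjusted p under 0.05, against 16.1% of genes. Log2 changes of the members ran from -0.67 for Nr1d1 to 0.55 for Npas2, and DESeq2 and limma called none. The WT group holds replicates 2 and 4, which stood apart, with Nr1d1 at 49.8 and 40.6 FPKM. It was 22.8 and 19.8 FPKM in WT replicates 1 and 3, and 11.4 to 34.7 FPKM in KO whole livers. For Dbp the 95% interval of the log2 change was -1.08 to 1.84 and for Arntl -2.18 to 0.85, and both intervals include differences of over 2-fold.

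In hepatocytes no member was called either (background 0.32%), and 4 of 10 had an unadjusted p under 0.05. Among all tested genes that share was 8.95%. Cry1 had a log2 change of -1.26 ± 0.32 (SE, edgeR adjusted p = 0.133), with all 4 KO libraries below all 4 WT libraries. DESeq2 called Cry1 alone (adjusted p = 0.0156), and limma called none. Npas2 had -2.33 ± 0.81 (adjusted p = 0.357) and Clock -0.49 ± 0.20 (adjusted p = 0.489), whereas Per1 had 1.56 ± 0.65 (adjusted p = 0.489). Without WT replicate 3, the WT library with the highest Per1 (7.31 FPKM), Per1 had 2.87 (adjusted p = 0.0463). Leaving out the highest WT value enlarges the change by construction, so this shows only that the estimate depends on that library. The correlation with gene length was 0.136 to 0.371 in KO hepatocytes and 0.383 to 0.483 in WT hepatocytes, without overlap, and its part was not tested. The median absolute log2 change was 0.96 over the members and 0.17 over all genes. In whole liver it was 0.31 over the members and 0.23 over all genes. The members varied widely within groups and vary together, so these medians are descriptions. Averaged over both materials, no member was called (background 0.4%) and 3 had an unadjusted p under 0.05, Clock (-0.37), Cry1 (-0.61) and Nr1d2 (0.36), against 16.7% of all genes at that p. No member was called for a genotype effect that differs between hepatocytes and whole liver (background 0%), and the 1 member with an unadjusted p under 0.05 was Cry1 with -1.31 ± 0.45 (unadjusted p = 0.00986). In both comparisons DESeq2 and limma called none.

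By animal number, 3 KO hepatocyte mice neighbour a WT mouse: KO replicates 1, 2 and 3 with WT replicates 1, 3 and 4. KO replicate 4 and WT replicate 2 were left over and put together as a further pair, though their numbers are far apart. Within these pairs the log2 Dbp to Arntl ratio was -0.34 in KO replicate 1 and -1.33 in WT replicate 1, 2.34 in KO replicate 2 and -0.55 in WT replicate 3, 4.84 in KO replicate 3 and 3.63 in WT replicate 4, and 4.41 in KO replicate 4 and -0.43 in WT replicate 2. The KO mouse was higher in 4 of 4 pairs, 1 of which is the left-over pair. The low pair (replicates 1) and the high pair (KO replicate 3 and WT replicate 4) each had both mice on the same side. The labels do not say that these pairs share a litter or a day, and whether they were taken at the same time was not tested. Deviations of KO and WT libraries over all genes correlated at 0.049 to 0.367 in these 4 pairs, lowest in the left-over pair. Those of the other hepatocyte pairs correlated at -0.336 to 0.146. With these 4 pairs as a block, the left-over pair included, Per1 alone was called in hepatocytes, with 2.24 (edgeR adjusted p = 0.0473).

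**Figure D3:**
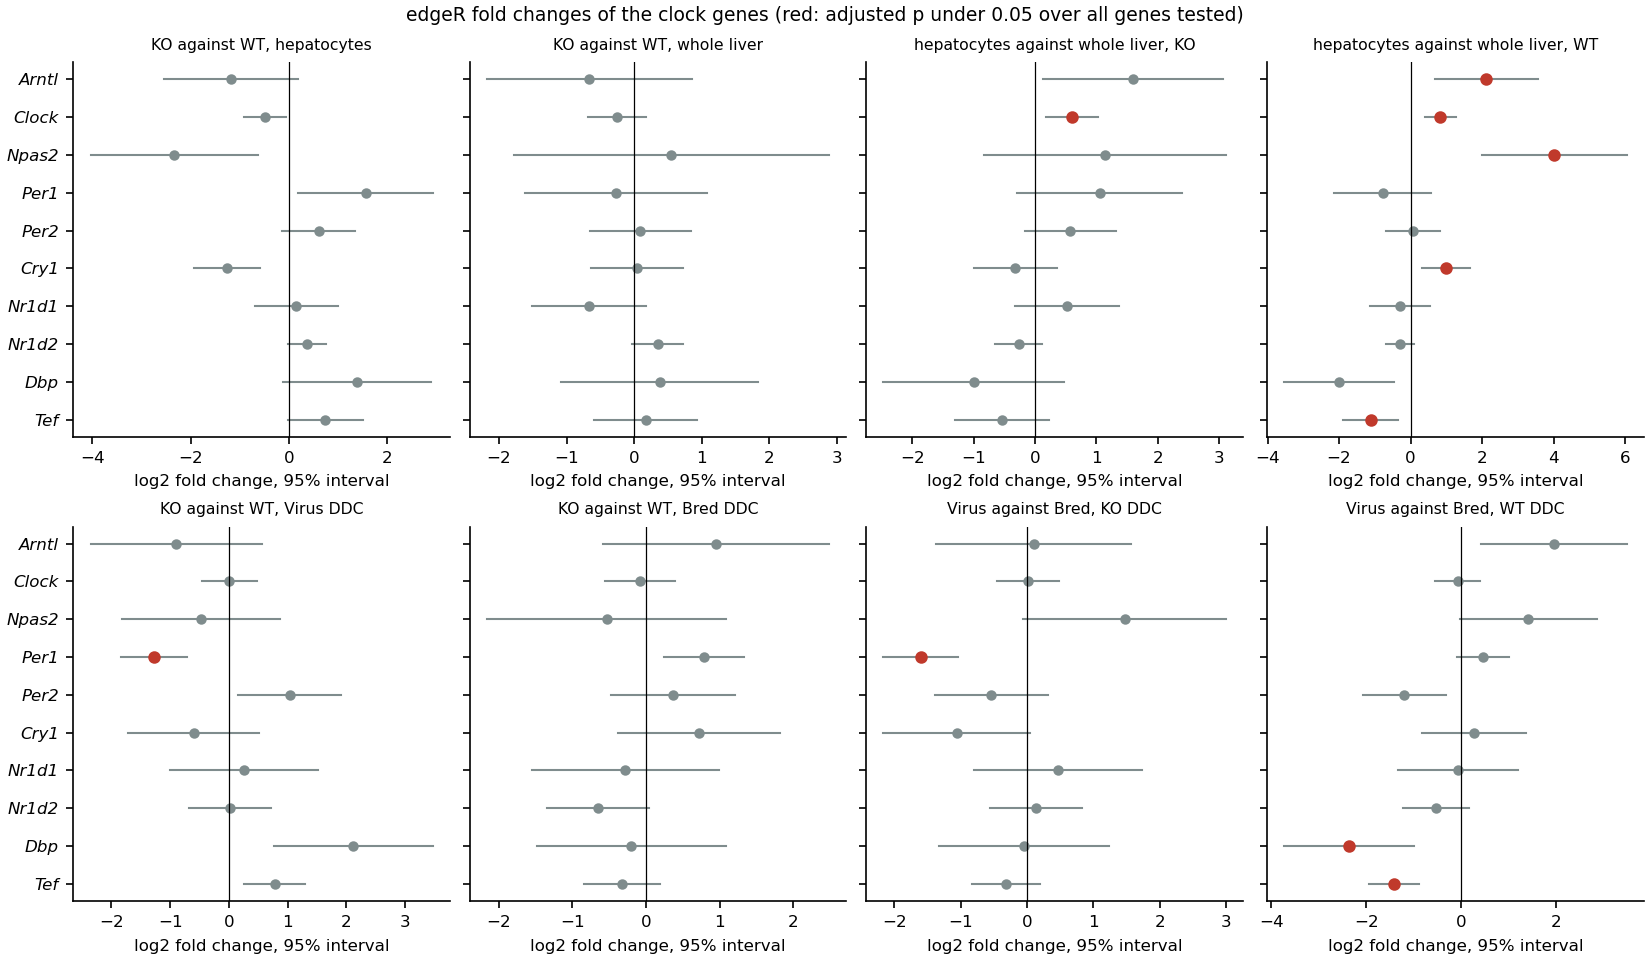
Log2 fold changes of the 10 clock genes (x axis, lines are 95% intervals) in 8 comparisons; the title of each panel names the group on top first, and red points have an edgeR adjusted p under 0.05. No point is red for KO against WT in hepatocytes, whole liver or Bred livers, 5 are red for hepatocytes against whole liver in WT, and Per1 is the red point for KO against WT in Virus livers.

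Hepatocytes and whole liver were compared within genotype. In WT, 5 of 10 members were called (4 up, 1 down), against 25.4% of all genes. Arntl rose by a log2 change of 2.12 ± 0.68 (edgeR adjusted p = 0.033), Clock by 0.84 ± 0.20 (adjusted p = 0.00987), Npas2 by 4.02 ± 0.96 (adjusted p = 0.0091) and Cry1 by 0.98 ± 0.32 (adjusted p = 0.0331). Tef fell, with -1.11 ± 0.37 (adjusted p = 0.0353). Dbp missed the threshold with -2.0 ± 0.73 (adjusted p = 0.0517). Its FPKM ranges nearly touched, with up to 31.6 FPKM in hepatocytes and from 31.9 FPKM in whole liver. FPKM uses raw library totals, without the scaling between libraries used in the test. The share of all genes without overlap was not counted here. Clock and Npas2 kept their calls in all alternatives, while without the WT whole livers that stood apart (replicates 2 and 4) the count was 2 and Arntl (adjusted p = 0.0581), Cry1 (0.123) and Tef (0.105) were not called.

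In KO, 1 of 10 members was called, against 44.1% of all genes. Clock rose by 0.60 ± 0.20 (adjusted p = 0.0242), and Arntl had 1.59 ± 0.70 (adjusted p = 0.0725). Leaving out KO hepatocyte replicate 1 or 2, or KO whole liver replicate 1 or 4, ended the Clock call (adjusted p = 0.0603 to 0.0838). Of 10 immediate early genes, which respond within minutes to stimuli, 9 were called higher in hepatocytes in either genotype (Fos 8.36 in KO and 6.38 in WT, Jun 3.93 in KO and 3.03 in WT, as log2 changes). Of 16 other clock loop genes, 3 were called higher in KO, Bhlhe40 (0.88), Rora (0.52) and Fbxl21 (0.68). In WT 1 was called higher, Nfil3 (0.82), and 1 lower, Ciart (-2.40). Of 16 clock-controlled liver genes, 3 rose and 2 fell in KO, and 3 fell in WT, among them Usp2 (-2.67 in WT). Upp2 was called lower in both genotypes (-1.44 in KO and -1.59 in WT). The correlation with gene length was 0.136 to 0.371 in KO hepatocytes against -0.548 to -0.359 in KO whole livers, and 0.383 to 0.483 in WT hepatocytes against -0.532 to 0.337 in WT whole livers, so it separated hepatocytes from whole liver in both genotypes. The part of this and of cell isolation in these differences was not tested.

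In DDC livers, Per1, Per2, Dbp and Tef each had no overlap between Virus KO and Virus WT. The share of all genes without overlap was not counted. These 4 of 10 members were also those with an edgeR unadjusted p under 0.05, which 18.7% of all genes reached. Per1 had 6.31, 4.01 and 3.78 FPKM in Virus KO, against 12.97, 8.50 and 8.96 FPKM in Virus WT. It had 13.2, 14.5 and 14.7 FPKM in Bred KO, against 8.81, 8.80 and 4.96 FPKM in Bred WT. The groups did not overlap within either method, and KO was below WT in Virus livers and above WT in Bred livers. Dbp had 66.1, 42.01 and 40.7 FPKM in Virus KO, against 8.26, 17.3 and 4.85 FPKM in Virus WT. In Bred livers it had 58.4, 8.85 and 90.1 FPKM in KO, against 39.4, 47.04 and 75.1 FPKM in WT. Tef had 32.1, 27.0 and 18.7 FPKM in Virus KO, against 15.2, 15.97 and 9.09 FPKM in Virus WT, and 30.3, 24.8 and 41.4 FPKM in Bred KO, against 37.5, 37.3 and 35.9 FPKM in Bred WT. Per2 had 4.73, 2.98 and 3.01 FPKM in Virus KO, against 1.79, 1.66 and 1.23 FPKM in Virus WT. Virus WT was thus the lowest of the 4 groups in Dbp and Tef, apart from Dbp in Bred KO replicate 2.

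In 1 fit of the 12 DDC libraries (13955 genes), 1 of 10 members was called between Virus KO and Virus WT, against 2.66% of all genes. Per1 fell, with a log2 change of -1.27 ± 0.26 (edgeR adjusted p = 0.0259), and the call was lost without Virus KO replicate 2 or 3 or Virus WT replicate 1 (adjusted p = 0.0925 to 0.106). Dbp had 2.12 ± 0.63 (adjusted p = 0.0928), Tef 0.78 ± 0.24 (adjusted p = 0.103) and Per2 1.03 ± 0.40 (adjusted p = 0.194), and DESeq2 called Dbp (0.0499) and Tef (0.032) as well as Per1. Of 16 other clock loop genes, Hlf, a further PAR bZIP factor, rose (1.47) and Nfil3 fell (-2.01). Of 16 clock-controlled liver genes, Cyp7a1, the rate-limiting enzyme of bile acid synthesis (2.34), and Wee1, a cell cycle kinase (1.09), rose, and Lpin1 fell (-2.19). Of the glucocorticoid-responsive genes Mt2 fell (-2.80), and of the immediate early genes Btg2 (-1.62) and Junb (-1.21) fell. The summed macrophage markers were 193 to 226 FPKM in Virus KO and 244 to 283 FPKM in Virus WT, and the stellate cell markers 158 to 210 FPKM in Virus KO and 115 to 148 FPKM in Virus WT, without overlap, and their part in these differences was not tested. The feeding and fasting list had 3 of 12 called lower, Igfbp1 (-5.25), Pdk4 (-1.36) and Pck1 (-1.79).

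Between Bred KO and Bred WT no member was called by edgeR (background 6.25%), and Per1 was the 1 member at an unadjusted p under 0.05, which 24.6% of tested genes reached, with 0.79 ± 0.25 (adjusted p = 0.0778). DESeq2 (adjusted p = 0.0293) and limma (0.0383) called it. Same-numbered Bred libraries deviated together, which the main fit left out, and with the replicate block Per1 was called with 0.83 (edgeR adjusted p = 0.0188). Bred KO replicate 2 had the lowest Nr1d1 (2.36 FPKM), Nr1d2 (7.19 FPKM) and Dbp of the Bred livers and the highest Cry1 (12.9 FPKM), and without it no member was called either. The summed stellate cell markers were 237 to 277 FPKM in Bred KO and 104 to 162 FPKM in Bred WT, and the endothelial markers 57.7 to 63.5 FPKM in Bred KO and 47.6 to 53.6 FPKM in Bred WT, and their part was not tested. Of the endothelial markers, mean Kdr and Lyve1 were slightly lower in Bred KO, and the others were higher. Of 8 glucocorticoid-responsive genes, Dusp1 (1.47) and Sgk1 (0.85) rose in Bred KO. Of the clock-controlled liver genes, Nampt (-0.72) and Upp2 (-1.52) fell. Averaged over both methods, no member was called (background 6.41%), and 2 had an unadjusted p under 0.05, Dbp (0.96) and Per2 (0.70), against 25.4% of all genes at that p. DESeq2 and limma called none. With the replicate block Per2 was called (0.65, adjusted p = 0.0197), and without Bred KO replicate 2 Dbp was (1.20, adjusted p = 0.0403). That library had the lowest Dbp of the Bred livers, so leaving it out enlarges the change by construction.

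The genotype effect differed between methods for Per1. The Virus effect minus the Bred effect was -2.06 ± 0.36 (edgeR adjusted p = 0.0128), and Per1 was the only member called, against 3.21% of all genes. With the replicate block 3 were called, among them Tef (1.14, adjusted p = 0.0165). Dbp had 2.32 ± 0.86 (adjusted p = 0.171) and Tef 1.11 ± 0.34 (adjusted p = 0.102). For the same contrast, 4 of 8 glucocorticoid-responsive genes were called with the same sign as Per1, Dusp1 (-2.78), Mt2 (-4.11), Sgk1 (-1.30) and Tat (-2.22), and 3 of 10 immediate early genes were, Btg2 (-2.91), Klf6 (-0.98) and Junb (-1.76). Mt2, a metallothionein, ran from 118 to 192 FPKM in Virus KO, against 443 to 1329 FPKM in Virus WT, and from 262 to 717 FPKM in Bred KO, against 57.1 to 231 FPKM in Bred WT. The part of glucocorticoid or stress signals in the Per1 difference was not tested.

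The methods were also compared within genotype. Among WT livers, 2 of 10 members were called, against 16.4% of all genes. Dbp fell in Virus WT relative to Bred WT, with -2.36 ± 0.63 (edgeR adjusted p = 0.0242), and Tef fell with -1.42 ± 0.24 (adjusted p = 0.00295). In both genes the 3 Virus WT livers were below the 3 Bred WT livers. Arntl had 1.95 ± 0.71 (adjusted p = 0.0772), with 2.67, 1.70 and 3.59 FPKM in Virus WT, against 0.398, 1.13 and 0.559 FPKM in Bred WT, which did not overlap. Per2 had -1.20 ± 0.40 (adjusted p = 0.0597). The Dbp call was lost without Bred WT replicate 3 or Virus WT replicate 1 or 3 (adjusted p = 0.0683 to 0.0901), and the Tef call was kept in all alternatives. Of 16 other clock loop genes, 5 were called lower, among them Hlf (-2.30), Btrc (-0.84) and Per3 (-2.74), and Nfil3 rose (1.68). Of 16 clock-controlled liver genes, 5 were called lower, among them Upp2 (-2.85), Cyp7a1 (-3.82) and Usp2 (-2.76), and Lpin1 rose (0.99). The marker sums of 2 cell types did not overlap between these groups, hepatocytes with 21887 to 26594 FPKM in Virus WT and 29250 to 30453 FPKM in Bred WT, and endothelial cells with 59.0 to 65.0 FPKM in Virus WT and 47.6 to 53.6 FPKM in Bred WT. Those of biliary, stellate, macrophage, leukocyte and red blood cells overlapped. Single markers did not all follow the hepatocyte and endothelial sums. Mean Alb was lower in Virus WT (13363 FPKM, against 20738 FPKM in Bred WT), as was Serpina1c. Mean Apoa1 and Fgb were higher, and Ttr was nearly equal. Of the endothelial markers, mean Kdr and Stab2 were lower in Virus WT, and the others were higher. The correlation with gene length also separated the methods, at -0.268 to -0.192 in Virus WT and 0.0313 to 0.149 in Bred WT. The part of these in the method difference was not tested.

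Among KO livers, 1 of 10 members was called, against 3.02% of all genes. Per1 fell in Virus KO relative to Bred KO, with -1.60 ± 0.26 (adjusted p = 0.0103), and the call was lost without Virus KO replicate 2 (adjusted p = 0.054). Dbp and Tef had -0.05 ± 0.59 and -0.31 ± 0.24, with 95% intervals of -1.33 to 1.24 and -0.82 to 0.20. Marker sums did not overlap for hepatocytes (25035 to 26186 FPKM in Virus KO and 28067 to 39323 FPKM in Bred KO), stellate cells (158 to 210 FPKM in Virus KO and 237 to 277 FPKM in Bred KO), macrophages (193 to 226 FPKM in Virus KO and 256 to 395 FPKM in Bred KO) and red blood cells (115 to 299 FPKM in Virus KO and 316 to 1269 FPKM in Bred KO). Single markers did not all follow these sums. Mean Alb was lower in Virus KO (14764 FPKM, against 23185 FPKM in Bred KO), as was Fgb, while Ttr, Apoa1 and Serpina1c were higher. Mean Adgre1 and Clec4f (macrophages), Lrat (stellate cells) and Alas2 (red blood cells) were also higher in Virus KO. The other markers of these cell types were lower. The correlation with gene length was -0.337 to -0.0237 in Virus KO and 0.0878 to 0.316 in Bred KO. The part of these was not tested. The comparisons within genotype and within method share libraries.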

How the data were processed

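RNA of whole liver and isolated hepatocytes was sequenced from libraries made with the NEBNext Ultra Directional kit. The authors aligned reads to mm10 with STAR and made counts per gene with HTSeq 0.6.1, and they deposited counts and FPKM of 35275 genes for 16 unfed and 12 DDC libraries, with no column left unused (0). Replicates come from separate mice by the labels. Here, counts were tested with edgeR 4.0.16 (R 4.3.3, TMM, filterByExpr with a minimum count of 10 and a minimum total of 15), in 1 fit of 4 groups per experiment, at an adjusted p under 0.05, with 12507 unfed and 13955 DDC genes. Deposited FPKM served for levels. Totals of 11162678 to 20428773 counts limit precision for Npas2 most.

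The members and lists were chosen with earlier results of these data known. All 10 members were described, with folds for those at an unadjusted p under 0.05, and up to 4 called genes of each other list with the smallest p-values. The 5 genes most like Dbp and most like Arntl were ranked, of which 1 is not reported here. Alternatives were DESeq2 1.42.0, its size factors, no filter, limma 3.58.1 on log2(FPKM + 1), blocks, 2 groups alone, and libraries left out. Fits were tested on simulated data. Pairing was checked by the correlation of deviations from group means in same-numbered KO and WT libraries. The 3 Bred pairs had 0.348 to 0.386 and other Bred pairs -0.298 to -0.071, though the labels state no pairing. The main fits held no block, so Bred pairing entered only through the replicate block among the alternatives. Virus pairs had -0.105 to -0.0873, hepatocyte pairs -0.336 to 0.288 and whole-liver pairs -0.171 to 0.323.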

Additional observations from a re-analysis of the deposited data

Results flagged for a closer look

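In groups of 4, libraries were checked for a gap to the nearest other above Dixon's critical share of the range. Such a gap occurred in 5 of 40 gene and group combinations. Chance flags about 1 in 20 where values are normal and independent. FPKM values were not shown to be normal, and Dbp and Nr1d2 vary together, so no excess over chance is read from this count. Npas2 was at 0 FPKM in WT whole liver replicate 4 and at 0.596 FPKM in KO hepatocyte replicate 1, the highest of its group. Cry1 was at 7.60 FPKM in WT hepatocyte replicate 2, and WT hepatocyte replicate 4 had the highest Nr1d2 (20.3 FPKM) and Dbp (31.6 FPKM) of its group. The genotype effect on Per1 differed between Virus and Bred DDC livers by a log2 change of -2.06 (edgeR adjusted p = 0.0128).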

How the results depend on the processing

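The number of the 10 clock genes called by edgeR was recomputed under each alternative, and no log2 change of a named gene reversed. For KO against WT in hepatocytes (0 called) DESeq2 and the block of neighbouring numbers each called 1, and leaving out libraries gave 0 to 1. That block holds 1 pair whose numbers are not neighbouring. In DDC livers the block of neighbouring numbers was the same grouping as the replicate block, so it is given once. Its pairs there are mostly not neighbours. All Virus WT animal numbers come before the Virus KO numbers, so genotype follows number order and no Virus pair is adjacent. The numbers of Bred replicates 1 are also apart. For KO against WT in Virus livers (1 called) DESeq2 and the 2 groups alone called 3, no filter 2 and the replicate block 4. Leaving out libraries there gave 0 to 2. For KO against WT in Bred livers (0 called) DESeq2, no filter, limma and the replicate block each called 1. Averaged over both methods (0 called), the replicate block called 1, with 0 to 1 when libraries were left out. For the Virus effect minus the Bred effect (1 called) DESeq2 called 2, and the replicate block 3. For hepatocytes against whole liver in WT (5 called) the fit without both whole livers that stood apart called 2, with 2 to 6 when single libraries were left out. In KO (1 called) the 2 groups alone called 2, with 0 to 2. For Virus against Bred in WT (2 called) no filter and the 2 groups alone called 4, with 1 to 3, and in KO (1 called) leaving out libraries gave 0 to 1. The cause of these differences was not tested. The replicate block changed no other count by over 1.5 times. Same-numbered Virus, hepatocyte and whole-liver libraries did not deviate together, so the block there rests on numbers alone. With a pseudocount of 0.1 the mean log2 ratio of Dbp to Arntl was 5.05 in Virus KO and 1.76 in Virus WT, against 4.34 and 1.48 with 1. In unfed whole liver the mean ratio was 6.36 in KO and 5.08 in WT with 0.1, against 5.05 and 4.29 with 1. Low counts limit Npas2, and Arntl in whole liver.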
